A study of Mus musculus with 12 samples.

Results

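Hairpin 2 and hairpin 1 are separate short hairpin RNAs against the same mouse gene, Cldn7, and their libraries were compared directly. The comparison took the 4 libraries of hairpin 2 (sh2Cldn7) and the 4 of hairpin 1 (sh1Cldn7), 8 of the 12 libraries in the series, and paired them by replicate number. The other 4 libraries carry a control hairpin (shControl) and are used here as the reference level. All 12 came from MMTV-Neu mammary tumour organoids, which are clusters of tumour epithelium from mice whose mammary gland carries the Neu (Erbb2) oncogene under the mouse mammary tumour virus promoter. Organoids of every group were infected with virus at a multiplicity of infection of 20 and selected in 3 µg/ml puromycin for 3 days. They were grown for 5 days in fibrillar collagen I with 2.5 nM FGF2. The sources used here do not give the age of the mice or say whether replicates were separate animals. P-values of the paired fit used below therefore measure only the spread of these libraries that remains once differences between replicate numbers are taken out.

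Claudin 7 is a tight junction membrane protein of epithelia. The comparison asks which genes differ between 2 hairpins that lower this one target. The gene that stood out was Nfe2l2, which encodes NRF2, a transcription factor that turns on glutathione synthesis, glutathione transferases, NADPH production and heme and iron handling. NRF2 is held low by the adaptor KEAP1, which presents it for degradation, and once released it pairs with a small MAF protein and binds antioxidant response elements near its target genes.

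Gene levels are given in CPM, read counts scaled to a common library size and comparable for 1 gene between libraries but not between genes, and differences are log2 values of hairpin 2 minus hairpin 1 with their standard error (SE) from edgeR's quasi-likelihood test. The fit held all 12 libraries, with the replicate number as a block, and a gene passed at a Benjamini-Hochberg adjusted p under 0.05. "Rose" and "fell" below mean higher or lower with hairpin 2 than with hairpin 1 past that threshold. The hairpin libraries of replicates 1 and 2 held 34988358 to 44645514 counts and those of replicates 3 and 4 held 68756173 to 76329473. The labelled epithelium was present, with Epcam at 802 to 1686 CPM and Cdh1 at 422 to 606 CPM in the 8 hairpin libraries. Fibroblast genes varied with the replicate number: Col1a1, the main fibrillar collagen chain, was at 97.2 and 200.0 CPM in the replicate 3 hairpin libraries and at 1542 and 3220.2 CPM in those of replicate 4. The leukocyte gene Ptprc ranged from 2.18 to 5.1 CPM in replicates 1 and 2, but only from 0.0149 to 0.179 CPM in the later numbered pair, replicates 3 and 4.

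Both hairpins lowered Cldn7, and their levels overlapped. Cldn7 (chr11:69964779-69967886, GRCm38) was at 144, 136, 186 and 101 CPM in control replicates 1 to 4. With hairpin 1 it was at 31.1, 30, 44.2 and 29 CPM, and with hairpin 2 at 27.4, 25.4, 34.7 and 26.1 CPM. Every hairpin library was below every control library, and within each of the 4 pairs hairpin 2 was the lower. The fitted difference from the control was -2.07 for hairpin 1 (adjusted p = 2.63e-06) and -2.30 for hairpin 2 (adjusted p = 9.79e-07, both edgeR). Between the hairpins the log2 difference was -0.23 (SE 0.08, 95% interval -0.41 to -0.05), so Cldn7 with hairpin 2 was at 85.2% of its level with hairpin 1. That difference did not pass over all genes (edgeR adjusted p = 0.149). It did pass when control replicate 4 was left out, at the same -0.23 (edgeR adjusted p = 0.0447). Exact two-sided tests on the single gene gave p = 0.286 for free permutation of the 8 libraries and p = 0.125 for sign flips of the 4 pairs, where 0.0286 and 0.125 are the smallest values those designs allow.

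**Figure D1:**
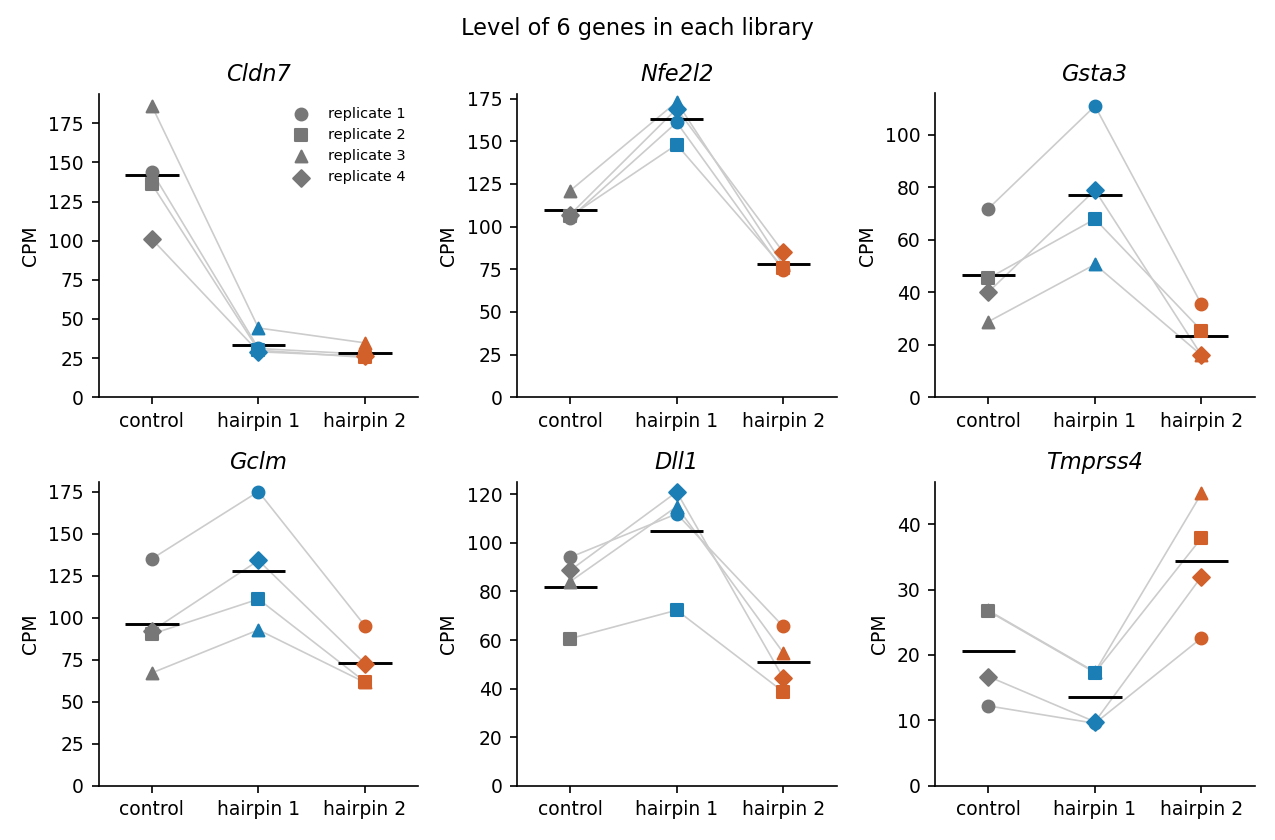
Level in CPM (vertical axis, from 0) of Cldn7, Nfe2l2, Gsta3, Gclm, Dll1 and Tmprss4 in each library of the control, hairpin 1 and hairpin 2; lines join libraries with the same replicate number and black bars are group means. Cldn7 is low with both hairpins, while Nfe2l2 is at 148 to 173 CPM with hairpin 1 and 74.3 to 85 CPM with hairpin 2, on either side of the control.

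Across the 17025 genes tested, 585 (3.44%) passed for hairpin 2 against hairpin 1. Of these, 267 rose (1.57% of genes tested) and 318 fell (1.87%). Most differences were small: the median absolute log2 difference of the 585 was 0.43, with 37 genes more than 2-fold higher and 28 more than 2-fold lower. Genes that passed were more highly expressed than the average gene, with a median of 38.3 CPM for those that rose and 61.5 CPM for those that fell, against 19.5 CPM over all genes tested. The median log2 difference over all genes was 0.008. In the same fit, 124 genes (0.728%) passed for hairpin 1 against the control and 981 (5.76%) for hairpin 2 against the control, and those comparisons share the 4 control libraries.

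The count of 585 rests on the pairing and on single libraries. Without the replicate block 1 gene passed, Nfe2l2 (edgeR adjusted p = 0.00111), with 490 genes at an unadjusted p under 0.05. Leaving out hairpin 1 replicate 1, 2, 3 or 4 left 197, 205, 165 and 189 genes, and leaving out hairpin 2 replicate 1 or 4 left 252 and 296. Of the 585 genes, 133 (22.7%) passed in all 12 fits that each left out 1 library, 94 of them lower and 39 higher.

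**Figure D2:**
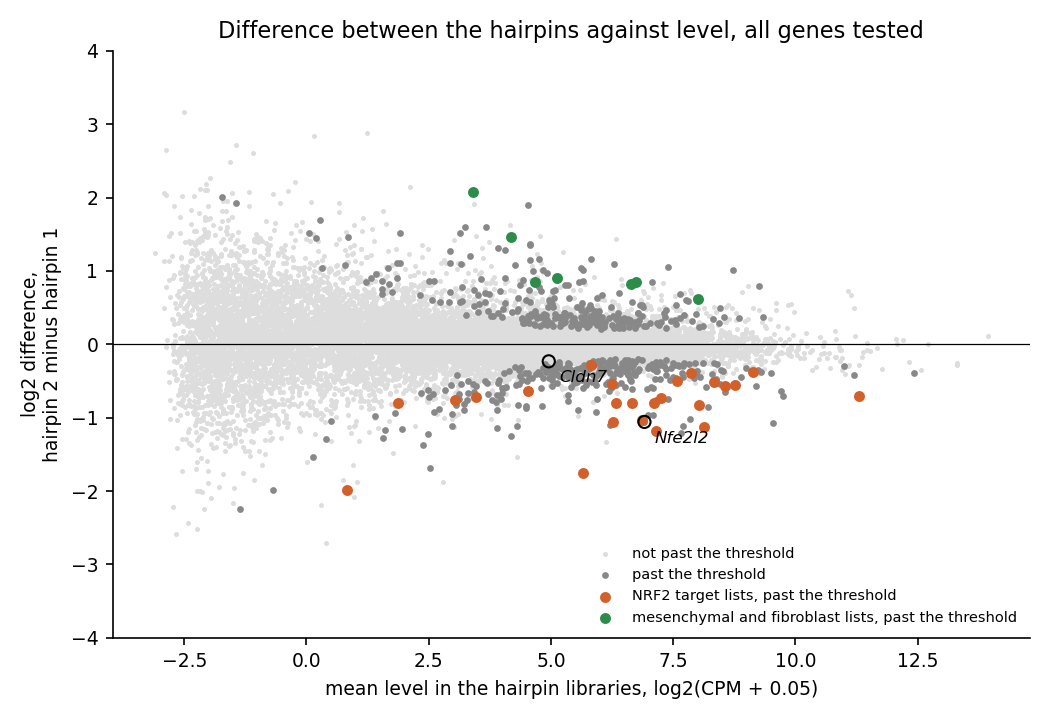
Log2 difference of hairpin 2 minus hairpin 1 (vertical axis) against mean level in the 8 hairpin libraries as log2(CPM + 0.05) (horizontal axis) for the genes tested, with 1 gene outside the plotted range of 4 in either direction. The coloured members of the NRF2 target lists that passed all lie below 0. The coloured mesenchymal and fibroblast genes that passed all lie above 0, and Cldn7 and Nfe2l2 are ringed.

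Nfe2l2 itself was lower with hairpin 2 in every pair. Nfe2l2 (chr2:75675513-75704663, GRCm38) was at 161, 148, 173 and 169 CPM with hairpin 1 and at 74.3, 75.8, 77.4 and 85 CPM with hairpin 2. The control libraries lay between them, at 105, 106, 121 and 107 CPM. No library of one group overlapped another, and the spread within a group (SD 10.8 CPM with hairpin 1, 4.77 with hairpin 2) was small beside the gap. The log2 difference was -1.06 (SE 0.06, 95% interval -1.18 to -0.93, edgeR adjusted p = 5.24e-05), which put hairpin 2 at 48% of hairpin 1. An exact two-sided permutation of the 8 libraries gave p = 0.0286, the smallest that 4 against 4 allows. Sign flips of the 4 pairs gave an exact p = 0.125, the smallest that 4 pairs allow. Nfe2l2 was singled out in these same data, and groups without overlap put both exact values at their floor, so neither adds support.

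The hairpins moved Nfe2l2 in opposite directions from the control. It was 0.57 higher on the log2 scale with hairpin 1 (edgeR adjusted p = 0.00592), and with hairpin 2 the difference was -0.49 (edgeR adjusted p = 0.00254). In replicates 1 and 2 alone the difference between the hairpins was -1.05, and in replicates 3 and 4 alone it was -1.07. The sequences of the hairpins were not used here, and whether either pairs with the Nfe2l2 transcript was not tested.

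In a list of NRF2 and genes whose products regulate or partner it, Nfe2l2 and Mafk were lower with hairpin 2. Of 22 genes tested these 2 fell (9.1%, against 1.87% of all genes) and 0 rose, and the list's median was -0.01. The list holds Nfe2l2 itself, already singled out above, so Mafk was the only call among its regulators and partners. Mafk, a small MAF partner of NRF2, was at 73.5, 73, 63.2 and 73.8 CPM with hairpin 1 and at 61.5, 49.9, 59.5 and 48.4 CPM with hairpin 2 (log2 difference -0.37, SE 0.08, edgeR adjusted p = 0.0415). Its groups did not overlap, but without hairpin 1 replicate 4 the difference was -0.33 and did not pass (edgeR adjusted p = 0.149), and it passed in 3 of the 12 fits without 1 library. Keap1, the adaptor that holds NRF2 low, differed by -0.12 between the hairpins (edgeR adjusted p = 0.207). Against the control Keap1 was higher with both, by 0.32 with hairpin 1 and 0.20 with hairpin 2 (edgeR adjusted p = 0.0199 and 0.0344). Bach1, a repressor that competes at the same elements, differed by 0.10 between the hairpins (edgeR adjusted p = 0.465).

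Genes of 2 lists, called the NRF2 target lists here, were lower with hairpin 2 as a group. The first covers glutathione synthesis, use and transfer as a pathway, and whether each member is an NRF2 target was not tested. Both lists were chosen with earlier results of these data known, so their excess over all genes is no independent support. Over the glutathione list and the list of NADPH, quinone, heme, iron and thioredoxin genes, 85 members were tested, of which 24 fell (28.2%, against 1.87% of all genes) and 0 rose. Below 0 lay 68 of the 85, and their median log2 difference was -0.30 against 0.008 for all genes. Left-out libraries changed this count, as they did the count of 585 over all genes. Without hairpin 1 replicate 1, 2 and 4, 13, 15 and 14 members passed, beside 197, 205 and 189 of all genes. Without hairpin 2 replicate 1 it was 14, beside 252 of all genes. Replicates 1 and 2 alone gave 16 of 85 members, beside 84 of 16597 genes. Replicates 3 and 4 alone gave 4 of 80 members, beside 42 of 16516 genes. Of the 24, 13 passed in every fit that left out 1 library, as did 133 of the 585.

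In the glutathione list, 11 of 40 members fell and the median was -0.24. Gsta3, an alpha-class glutathione transferase (chr1:21240565-21265575, GRCm38), had the largest fall among genes of at least 2 CPM that passed and carry a gene name. It was at 111, 67.9, 50.6 and 78.9 CPM with hairpin 1 and at 35.4, 25.4, 16 and 16 CPM with hairpin 2. The groups did not overlap, and the log2 difference was -1.76 (SE 0.12, edgeR adjusted p = 1.41e-04), which left 29.6% of the hairpin 1 level. Against the control Gsta3 was 0.76 higher with hairpin 1 (edgeR adjusted p = 0.02), and with hairpin 2 the difference was -1.0 (edgeR adjusted p = 0.00249).

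Gclm, the regulatory subunit of the enzyme that makes the first step of glutathione synthesis, was at 175, 111, 92.7 and 134 CPM with hairpin 1 and at 95.1, 61.8, 61.4 and 72.6 CPM with hairpin 2. The ranges overlapped because replicate 1 was high in both groups, but every pair was lower with hairpin 2 (log2 difference -0.80, SE 0.07, edgeR adjusted p = 5.79e-04). Against the control it was 0.42 higher with hairpin 1 and changed by -0.38 with hairpin 2, both past the threshold (edgeR adjusted p = 0.0277 and 0.0162). Gclc, the catalytic subunit of the same enzyme, fell by 0.54 on the log2 scale (edgeR adjusted p = 0.0184). Gclc lost its call without hairpin 1 replicate 1 (-0.54, edgeR adjusted p = 0.0693).

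Gstm1, a mu-class transferase, was at 339.8, 179.7, 103 and 161 CPM with hairpin 1 and at 153, 90.7, 49.2 and 56.8 CPM with hairpin 2. The log2 difference was -1.18 (SE 0.08, edgeR adjusted p = 1.56e-04), and it kept its call in all 12 fits without 1 library. Gstp1, a pi-class transferase, fell by 1.12 on the log2 scale (SE 0.10, edgeR adjusted p = 5.79e-04). Some of these genes share sequence with close copies, and 19.8% of the 50-base stretches of Gstm1 and 43.0% of those of Gstp1 also occur in another gene, so the authors' counting could have split their reads. Gstp2, the copy of Gstp1, ranged from 108 to 426 CPM in hairpin replicates 1 and 2 but from 0.322 to 0.474 CPM in hairpin replicates 3 and 4, and its difference of -1.04 rests on replicates 1 and 2.

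The remaining glutathione genes that fell were Mgst1, a membrane-bound transferase (-0.38), Gsr, which reduces oxidised glutathione (-0.28), Slc7a11, the cystine importer (-0.71), Gstm7 (-0.80) and Gsta2 (-1.98). Each lost its call in 6 or more of the 12 fits without 1 library. Gsta2 was low, at 0.461 to 6.6 CPM with hairpin 1 and 0.242 to 1.13 CPM with hairpin 2, and 59.5% of its sequence occurs in other genes. Gpx2, a selenium-dependent glutathione peroxidase, had a log2 difference of -1.88 that did not pass (edgeR adjusted p = 0.0603).

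In the list of NADPH, quinone, heme, iron and thioredoxin genes, 13 of 45 fell and the median was -0.34. Aox1, an aldehyde oxidase, was at 127, 104, 60.5 and 129 CPM with hairpin 1 and at 68.9, 48.7, 31.9 and 50.1 CPM with hairpin 2. All 4 pairs were lower, by 0.88 to 1.36 on the log2 scale, and the fitted difference was -1.06 (SE 0.08, edgeR adjusted p = 1.56e-04).

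The NADPH-producing enzymes of the pentose phosphate pathway fell too. G6pdx, which catalyses the first step, was at 455, 299.7, 334 and 250.4 CPM with hairpin 1 and at 269.7, 185, 182 and 126 CPM with hairpin 2. Its log2 difference was -0.83 (SE 0.07, edgeR adjusted p = 3.23e-04); 13.6% of its exon bases lie opposite those of Ikbkg, and the sources used here do not give the strand setting of the counting. Pgd, which makes the second NADPH of the pathway, was at 558, 407, 446 and 387 CPM with hairpin 1 and at 373, 281, 316 and 249 CPM with hairpin 2, with no overlap (log2 difference -0.56, SE 0.06, edgeR adjusted p = 0.00151). Me1, the cytosolic malic enzyme, fell by 0.39 on the log2 scale, and lost its call in 6 of the 12 fits without 1 library. Tkt and Taldo1, the transketolase and transaldolase of the same pathway, had differences of -0.42 and -0.40 that did not pass (edgeR adjusted p = 0.0694 and 0.078).

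Heme and iron genes formed another part of the list. Hmox1, which breaks heme down, was at 258, 119, 91.3 and 236 CPM with hairpin 1 and at 148, 76, 46.7 and 137 CPM with hairpin 2 (log2 difference -0.80, SE 0.12, edgeR adjusted p = 0.00865). Slc48a1, a heme transporter, fell by 0.74 on the log2 scale, and Fth1, the ferritin heavy chain that stores iron, by 0.71. Blvrb, a biliverdin reductase, fell by 0.63, and lost its call in 6 of the 12 fits without 1 library. Srxn1, which repairs oxidised peroxiredoxins, fell by 0.80 (edgeR adjusted p = 0.00151) and Txnrd1, the cytosolic thioredoxin reductase, by 0.52 (edgeR adjusted p = 0.00208). Srxn1 was also higher with hairpin 1 than in the control by 0.66 (edgeR adjusted p = 0.0106), and with hairpin 2 it differed from the control by -0.14 (edgeR adjusted p = 0.384).

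Nqo1, a quinone reductase and classic NRF2 target, was at 816, 447, 374 and 476 CPM with hairpin 1 and at 441, 307, 325 and 308 CPM with hairpin 2. The log2 difference was -0.56 (SE 0.10, edgeR adjusted p = 0.0154), smallest in pair 3 at -0.20, and without hairpin 1 replicate 4 it was -0.55 and did not pass (edgeR adjusted p = 0.0656). The rest of the list's calls were Osgin1 (-0.76), an oxidative stress growth inhibitor, and Esd (-0.50), an esterase, which passed in 7 and 8 of the 12 fits without 1 library. Aldh3a1, an aldehyde dehydrogenase, had a mean of 104 CPM with hairpin 1 and 35.9 CPM with hairpin 2, but libraries differed so much that the log2 difference of -1.33 (SE 0.41) did not pass (edgeR adjusted p = 0.111).

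**Figure D3:**
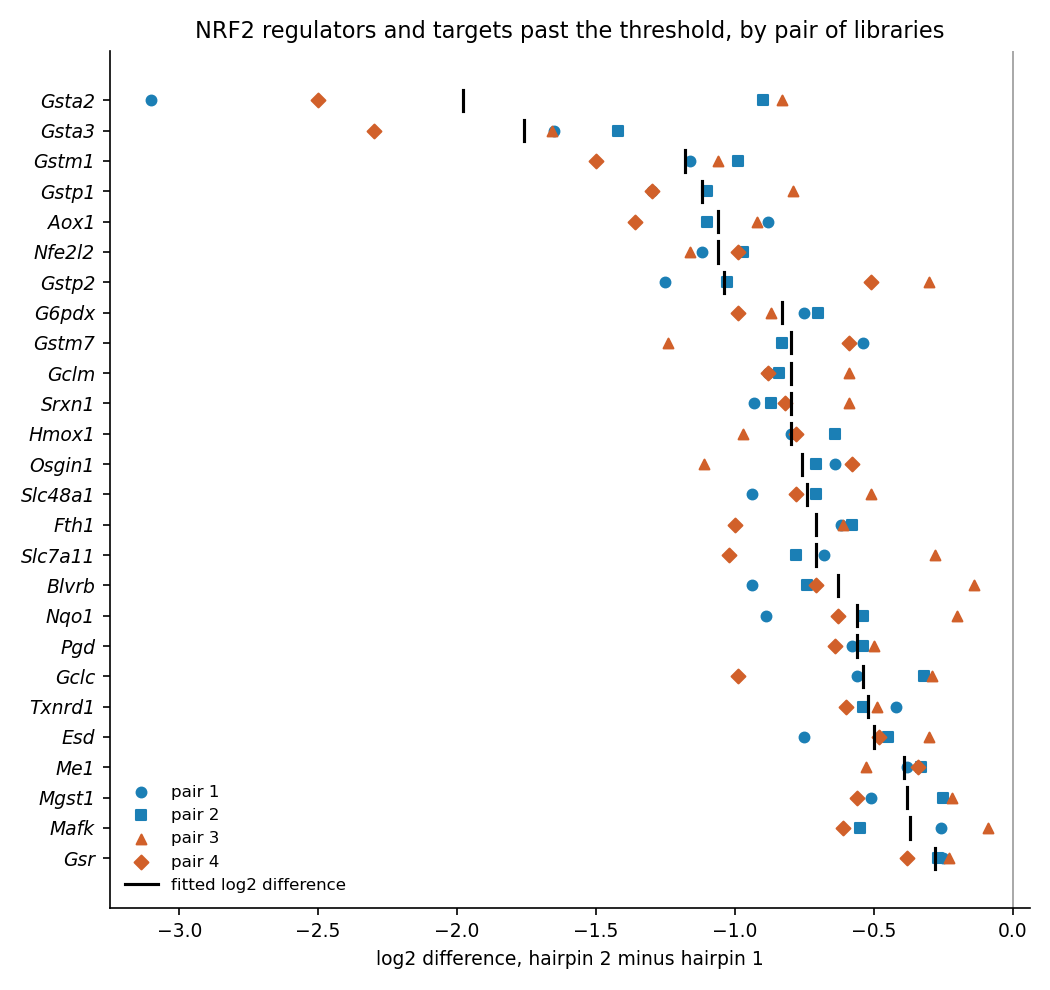
Log2 difference of hairpin 2 minus hairpin 1 (horizontal axis) in each of the 4 pairs of libraries. Rows are Nfe2l2, Mafk and the 24 members of the NRF2 target lists that passed. Black marks are the fitted differences and values of pairs are from log2 CPM with a prior count of 2. Every pair of every gene lies below 0, and the 4 pairs of Nfe2l2 lie within -1.16 to -0.97. The genes shown were chosen for passing in the fit of these same pairs, so the shared sign adds no support.

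Promoters of these genes were searched for the core of the antioxidant response element, written TGACNNNGC and read on both strands, in RefSeq promoters (GRCm38.p6) that run from 250 bases before to 50 after a gene's start. Of 20 members of the NRF2 target lists that fell and had a promoter in the table, 9 (45.0%) held the motif. Of the 12793 tested genes with a promoter, 2109 held it (16.5%), as did 63 of 259 genes that fell (24.3%) and 30 of 206 that rose (14.6%). With the 250 upstream bases alone the share was 6 of 20 (30.0%) against 13.7% of tested genes. A match is a run of letters and not a measured binding site. The 29 bases around the motif are shown for the 9 genes and for Nfe2l2, whose own promoter holds it too, each written 5′ to 3′ in the motif's orientation with the motif in capitals.
Gsta3, chr1:21240454-21240482: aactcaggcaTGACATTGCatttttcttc
Gclm, chr3:122245413-122245441: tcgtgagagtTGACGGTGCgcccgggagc
Srxn1, chr2:152105542-152105570: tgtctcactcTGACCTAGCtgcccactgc
Gstm7, chr3:107931725-107931753: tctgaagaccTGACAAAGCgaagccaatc
Pgd, chr4:149166061-149166089: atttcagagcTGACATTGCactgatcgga
Mgst1, chr6:138140461-138140489: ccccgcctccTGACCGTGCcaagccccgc
Me1, chr9:86695902-86695930: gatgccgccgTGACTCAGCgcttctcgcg
Txnrd1, chr10:82859104-82859132: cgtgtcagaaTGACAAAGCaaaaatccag
G6pdx, chrX:74428919-74428947: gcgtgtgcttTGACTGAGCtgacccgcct
Nfe2l2, chr2:75704885-75704913: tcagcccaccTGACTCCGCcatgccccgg
The windows of Gsta3 and G6pdx are on the plus strand and the other 8 on the minus strand.

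The 250 bases upstream of Gsta3 and Gclm are given whole. Among members of the NRF2 target lists with the motif upstream of their start, these genes passed the threshold above the control with hairpin 1 and below it with hairpin 2. Both are on the plus strand, and the motif is again in capitals, in Gclm as its reverse complement GCNNNGTCA.
Gsta3, chr1:21240335-21240584: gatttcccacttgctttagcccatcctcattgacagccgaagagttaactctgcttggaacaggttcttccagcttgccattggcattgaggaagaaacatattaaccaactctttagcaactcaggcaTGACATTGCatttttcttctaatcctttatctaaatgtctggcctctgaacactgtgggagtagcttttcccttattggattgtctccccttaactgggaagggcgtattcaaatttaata
Gclm, chr3:122245307-122245556: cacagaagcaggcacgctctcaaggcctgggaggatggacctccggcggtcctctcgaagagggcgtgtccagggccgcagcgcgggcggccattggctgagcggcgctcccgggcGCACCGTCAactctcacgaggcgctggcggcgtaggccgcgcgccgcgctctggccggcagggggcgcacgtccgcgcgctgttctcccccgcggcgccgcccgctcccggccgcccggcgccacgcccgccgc

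Genes called both in replicates 1 and 2 alone and in replicates 3 and 4 alone share no library between the calls. Replicates 1 and 2 called 84 genes and replicates 3 and 4 called 42, and 13 were in both, all 13 with the same sign (15.5% of the first list and 31.0% of the second). Of these, 11 were lower with hairpin 2 and 2 were higher, and 4 belong to the NRF2 target lists (Gsta3, Gstm1, Aox1 and G6pdx). Nfe2l2 was a further member.

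Chi3l1, a secreted chitinase-like protein, was at 1627, 841, 1088 and 501 CPM with hairpin 1 and at 787, 369, 497 and 269 CPM with hairpin 2. Its level differed by replicate number, yet each pair fell by 0.90 to 1.19 on the log2 scale, and the fitted difference was -1.07 (SE 0.06, edgeR adjusted p = 5.24e-05). Chi3l1 differed from the control by 0.29 with hairpin 1 (edgeR adjusted p = 0.0666) and by -0.77 with hairpin 2 (edgeR adjusted p = 5.60e-04).

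Dll1, a ligand of Notch receptors (chr17:15367354-15376932, GRCm38), was at 112, 72.3, 115 and 121 CPM with hairpin 1 and at 65.6, 38.7, 54.8 and 44.4 CPM with hairpin 2. No hairpin 2 library reached a hairpin 1 library, and the log2 difference was -1.05 (SE 0.09, edgeR adjusted p = 5.79e-04). It differed from the control by 0.35 with hairpin 1 (edgeR adjusted p = 0.126) and by -0.69 with hairpin 2 (edgeR adjusted p = 0.00394). An antisense gene, A930024N18Rik, lies opposite 20.5% of its exon bases. The other call among 34 Notch, WNT and BMP genes was Lef1, a transcription factor of the WNT pathway (-0.43, edgeR adjusted p = 0.0419), which passed in 4 of the 12 fits without 1 library. These 2 calls were 5.9% of the list, against 1.87% of all genes lower, and 0 rose. The list leaned the other way, with 22 of 34 genes above 0 and a median of 0.12.

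Rdh12, a retinol dehydrogenase, fell by 1.25 on the log2 scale (edgeR adjusted p = 0.00453). It was at 31.9, 16.6, 33.9 and 18.7 CPM with hairpin 1 and at 16.7, 7.84, 11.6 and 6.78 CPM with hairpin 2. Both hairpins lay on the same side of the control for this gene, at -0.37 (edgeR adjusted p = 0.366) and -1.61 (edgeR adjusted p = 0.00193).

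Pepd, a dipeptidase that frees proline, was at 70, 54.1, 68 and 53.1 CPM with hairpin 1 and at 39.4, 31.2, 35.1 and 26.2 CPM with hairpin 2, with no overlap (log2 difference -0.90, edgeR adjusted p = 9.15e-04). Like Nfe2l2 it passed above the control with hairpin 1 (0.46, edgeR adjusted p = 0.0464) and below it with hairpin 2 (-0.44, edgeR adjusted p = 0.0192). Meltf, a melanotransferrin, fell by 0.97 and Stc2, a secreted stanniocalcin, by 0.64 (edgeR adjusted p = 0.0011 and 0.00279).

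The genes of this set that rose were Tmprss4 and Lipa. Tmprss4, a membrane-anchored serine protease (chr9:45172726-45204119, GRCm38), was at 9.54, 17.3, 17.4 and 9.77 CPM with hairpin 1 and at 22.6, 37.9, 44.7 and 32 CPM with hairpin 2. Every hairpin 2 library was above every hairpin 1 library, and the log2 difference was 1.37 (SE 0.10, edgeR adjusted p = 1.56e-04). The control lay between, at a mean of 20.6 CPM, with hairpin 1 at -0.60 (edgeR adjusted p = 0.0264) and hairpin 2 at 0.77 (edgeR adjusted p = 0.0031). An antisense gene lies opposite 15.9% of the exon bases of Tmprss4.

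Lipa, the lysosomal acid lipase, was at 212, 312, 253 and 329 CPM with hairpin 1 and at 335, 545, 679 and 719 CPM with hairpin 2. The groups did not overlap, and the log2 difference was 1.01 (SE 0.11, edgeR adjusted p = 0.00173). Lipa differed from the control by -0.28 with hairpin 1 (edgeR adjusted p = 0.333) and by 0.73 with hairpin 2 (edgeR adjusted p = 0.00732).

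The genes that rose most, with at least 2 CPM on average, began with Mfap4 and Crabp1. Mfap4, a microfibril-associated protein, was at 1.28, 0.143, 0.535 and 14.7 CPM with hairpin 1 and at 3.16, 1.69, 2.13 and 60.7 CPM with hairpin 2. Replicate 4 was far above the other replicates in both groups, and the log2 difference was 2.07 (SE 0.37, edgeR adjusted p = 0.0178). Without hairpin 1 replicate 4 it was 2.13 and did not pass (edgeR adjusted p = 0.0849), and it passed in 7 of the 12 fits without 1 library. Lrrc15 (1.46) and Aspn (1.31), both found in activated fibroblasts, were likewise highest in replicate 4. Lrrc15 passed in 9 of the 12 fits and Aspn in 11.

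Crabp1, a cytosolic retinoic acid binding protein, was at 13.1, 1.58, 0.594 and 34.6 CPM with hairpin 1 and at 34.6, 9.46, 4.96 and 85.4 CPM with hairpin 2. All 4 pairs were higher with hairpin 2, by 1.30 to 2.99 on the log2 scale (fitted 1.90, SE 0.29, edgeR adjusted p = 0.0083), and the call held in all 12 fits. The imprinted noncoding RNAs Meg3, Rian and H19 differed by 1.60, 1.60 and 1.36 and passed in 8, 9 and 10 of the 12 fits. H19 was at 1.4 to 10.4 CPM in hairpin 1 replicates 1 to 3 and at 30.8 CPM in replicate 4, and at 2.53 to 34.4 CPM and 105 CPM in the same libraries of hairpin 2.

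The other genes of this group were Gsg1l (1.52), an AMPA receptor auxiliary subunit, Itih5 (1.28), an inter-alpha-trypsin inhibitor heavy chain, Apol7a (1.27) and the collagen Col25a1 (1.21). Itih5 rose in all 4 pairs, from 2.41, 6.93, 18.3 and 9.47 CPM to 4.52, 13.6, 44.3 and 33.1 CPM, and kept its call in all 12 fits. Apol7a passed in 5 of the 12 and shares 15.2% of its sequence with other genes.

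Beside Gsta3, Gstm1, Gstp1 and Rdh12, the genes that fell most included Car8 (-1.69), a carbonic anhydrase-related protein. Car8 was at 5.32, 10.9, 14 and 5.03 CPM with hairpin 1 and at 1.66, 4.24, 2.84 and 1.72 CPM with hairpin 2, without overlap, but passed in 6 of the 12 fits without 1 library. Cyp1a1, a cytochrome P450 induced through the aryl hydrocarbon receptor, fell by 1.23, and Crispld2, a secreted protein, by 1.20. Ccnjl, Ceacam10, Scn8a and Armh4 fell by 1.38, 1.28, 1.16 and 1.16, from means under 10 CPM in every group; Ceacam10 and Armh4 passed in 6 of the 12 fits and Ccnjl in 10.

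**Figure D4:**
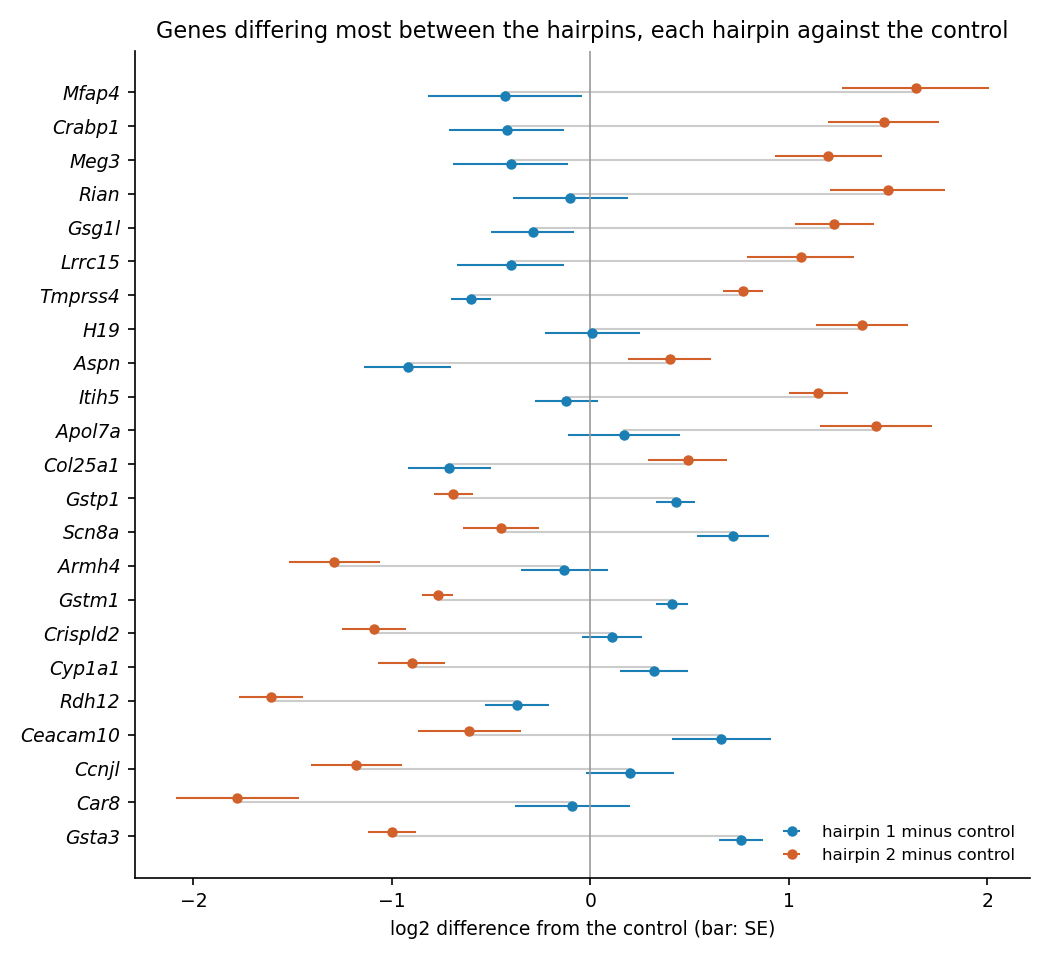
Log2 difference from the control (horizontal axis, bars are SE) with hairpin 1 and with hairpin 2 for 23 of the genes that differed most between the hairpins (rows); the 2 values of a gene share the control libraries. Gsta3 lies at 0.76 and -1.0 and Tmprss4 at -0.60 and 0.77, on opposite sides of the control, while Mfap4 lies at -0.43 and 1.64.

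Mesenchymal genes were higher with hairpin 2, with 4 of 30 past the threshold (13.3%, against 1.57% of all genes), 0 lower and a median of 0.54. They were Prrx1, a mesenchymal transcription factor (0.85), the collagen VI chains Col6a1 (0.84) and Col6a2 (0.81), and Vim, the intermediate filament vimentin (0.61). Vim was at 219.6, 117, 107 and 376 CPM with hairpin 1 and at 301, 173, 186 and 587 CPM with hairpin 2, higher in each pair, with overlapping ranges. Each of the 4 calls was lost without hairpin 1 replicate 3, where the differences were 0.73, 0.74, 0.80 and 0.53 for Prrx1, Col6a1, Col6a2 and Vim (edgeR adjusted p = 0.101 to 0.156). Prrx1 passed in 9 of the 12 fits without 1 library, Col6a2 in 6, Col6a1 in 5 and Vim in 3.

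The calls among fibroblast markers went the same way. Of 20 such markers, 3 rose (Mfap4, Lrrc15 and Dcn, the matrix proteoglycan decorin, at 0.91) and 0 fell, which is 15.0% higher against 1.57% of all genes. Called or not, 15 of the 20 lay above 0 and 5 below, with a median of 0.25. Their summed level was 1473, 1456, 399 and 5440.3 CPM with hairpin 1 and 2455, 948, 662 and 9238 CPM with hairpin 2. It was higher with hairpin 2 in pairs 1, 3 and 4 and lower in pair 2. In pair 2 the median difference was 0.04 over the mesenchymal list and 0.0 over the fibroblast list, and the called members of both lists, which were chosen on all 4 pairs, were higher with hairpin 2: Vim by 0.56, Col6a1 by 0.76, Col6a2 by 0.98, Prrx1 by 0.72, Mfap4 by 3.26, Lrrc15 by 2.13 and Dcn by 0.39. In bulk RNA, more fibroblasts and more of a transcript per cell cannot be told apart, and the part of fibroblast content in these differences was not tested. Markers of pericytes, endothelium, macrophages, lymphocytes and adipocytes had 0 calls in 12, 13, 23, 18 and 4 genes tested, but their medians were 0.47, 0.28, -0.37, -0.51 and 0.74. Pericyte markers lay above 0 in 10 of 12 cases and adipocyte markers in 4 of 4, but in pair 2 the medians of these lists were -0.18 and -0.41. The part of these cell types in the differences was not tested. The adipocyte gene Adipoq was at 0 to 0.685 CPM.

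The smooth muscle program, to which the study's title ties claudin 7, gave 1 call between the hairpins. Of 29 contractile genes 1 rose (3.4%, against 1.57% of all genes), Mrtfb, a coactivator of serum response factor (0.36, edgeR adjusted p = 0.0294), while 23 of 29 lay above 0 and the list's median was 0.16. Against the control, 8 of the 29 passed as higher with hairpin 2 (2.83% of all genes did) and 1 with hairpin 1 (0.382% of all genes did), comparisons that share the control libraries. Without hairpin 1 replicate 4 Mrtfb did not pass (0.35, edgeR adjusted p = 0.111). Acta2, smooth muscle alpha-actin, was at 179.9, 422, 122 and 88.5 CPM with hairpin 1 and at 142, 522, 284 and 224 CPM with hairpin 2. It was lower with hairpin 2 in pair 1 (-0.35) and higher in pairs 2, 3 and 4 (0.31, 1.23 and 1.34). The fitted difference was 0.64 (SE 0.23, edgeR adjusted p = 0.151), with -0.01 when replicates 1 and 2 were fitted alone and 1.28 for replicates 3 and 4 alone (edgeR adjusted p = 0.988 and 0.0329). Against the control Acta2 differed by 0.50 with hairpin 1 (edgeR adjusted p = 0.384) and by 1.14 with hairpin 2 (edgeR adjusted p = 0.0193).

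Luminal and milk genes split in both directions, with 5 of 29 higher (17.2%, against 1.57% of all genes), 2 lower (6.9%, against 1.87%) and a median of 0.04. Ehf, an epithelial ETS factor, was at 243, 290.0, 316 and 310.0 CPM with hairpin 1 and at 320.4, 395, 488 and 434 CPM with hairpin 2, with no overlap (0.49, SE 0.06, edgeR adjusted p = 0.00228). Btn1a1, a milk fat globule protein, was 1.10 higher (edgeR adjusted p = 0.0046) and Wfdc18, a secreted protein of the mammary gland, 0.80 higher (edgeR adjusted p = 0.00296). Ehf, Btn1a1 and Wfdc18 kept their calls in all 12 fits. Kit, a receptor of luminal progenitors, rose by 0.38 and Muc1, an apical mucin, by 0.78. The members that fell were Aldh1a3 (-0.44), which makes retinoic acid, and Lcn2 (-0.30), an iron-carrier binding lipocalin. Kit, Muc1, Aldh1a3 and Lcn2 each lost their call in at least 1 of the 12 fits.

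Genes of the hypoxia and glycolysis list were mostly lower among those called, with 5 of 27 lower (18.5%, against 1.87% of all genes), 1 higher and a median of -0.15. Pfkp, a phosphofructokinase, fell by 0.58 (edgeR adjusted p = 0.00549) and kept its call in all 12 fits. Slc2a1, the glucose transporter GLUT1, was at 189.9, 145, 167 and 146 CPM with hairpin 1 and at 109, 94, 145 and 88.9 CPM with hairpin 2 (-0.60, edgeR adjusted p = 0.0146), and passed in 8 of the 12. Egln3, a prolyl hydroxylase of the oxygen-sensing pathway, fell by 1.02, Hk1, a hexokinase, by 0.35 and Pkm, the pyruvate kinase, by 0.41. Egln3, Hk1 and Pkm were also each lost in at least 1 of the 12. Pfkfb3, which makes the activator of phosphofructokinase, rose by 0.81 (edgeR adjusted p = 0.0083).

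Lipid genes were called in both directions, 8.0% each way against 1.57% of all genes higher and 1.87% lower. Of 25 genes of triglyceride synthesis and lipid handling, Mogat1 (0.58) and Dgat1 (0.25), acyltransferases that build diglyceride and triglyceride, rose, and Acsl4 (-0.70) and Agpat2 (-0.31) fell. Acsl4, which activates polyunsaturated fatty acids, was at 1147, 867, 1373 and 871 CPM with hairpin 1 and at 868, 542, 807 and 437 CPM with hairpin 2 (edgeR adjusted p = 0.00559). It kept its call in all 12 fits, while Dgat1 passed in 1, Mogat1 in 5 and Agpat2 in 7.

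The remaining lists had 1 to 3 calls each, to be read against 1.57% of all genes higher and 1.87% lower. Stat2, a transducer of interferon signals, was the 1 call of 31 interferon response genes (0.54, 3.2% of the list). In that list 26 of 31 lay above 0 and the median was 0.39, but by pair it was 0.17, 0.21, 0.07 and 0.99. Btg2, an antiproliferative gene, rose (0.39), and Gadd45a (-0.56) and Bax (-0.31) fell among 26 genes of the p53 response (3.8% higher and 7.7% lower). The chemokine Cxcl12 (-0.37) and the cytokine Csf3 (-0.67) fell among 31 cytokines (6.5%), and Herpud1 (-0.39), with Slc7a11 above, among 29 genes of endoplasmic reticulum stress (6.9%). Tspan8 (0.35) and Igfbp2 (0.98) rose among 26 basal genes (7.7%), and the protease Adam10 (0.32) among 28 proteases and inhibitors (3.6%). Etv5, an ETS factor induced by growth factors, fell (-0.48) among 24 ERBB genes (4.2%), the tricellular junction gene Marveld2 (-0.22) among 34 junction genes (2.9%), and the protease inhibitor Spint1 (-0.25) among 18 epithelial markers (5.6%). Each of these 13 genes lost its call in at least 3 of the 12 fits without 1 library.

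Lists with 0 calls in either direction were the claudins (13 tested, median 0.01), proteasome subunits (25, -0.09), the small RNA machinery that processes hairpins (15, 0.05), cell cycle genes (32, -0.26), cholesterol synthesis (27, -0.16) and mitochondrially encoded genes (13, -0.29). In the small RNA list the smallest p was that of Ago2, the slicing Argonaute, at 0.28 (edgeR adjusted p = 0.0549), and DESeq2 called it (adjusted p = 0.0129). Cell cycle genes lay below 0 in 30 of 32 cases, but their median was -0.95 in pair 3 and 0.11 in pair 4. The cholesterol synthesis median was 0.02, 0.11, -0.73 and -0.01 in pairs 1 to 4.

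**Figure D5:**
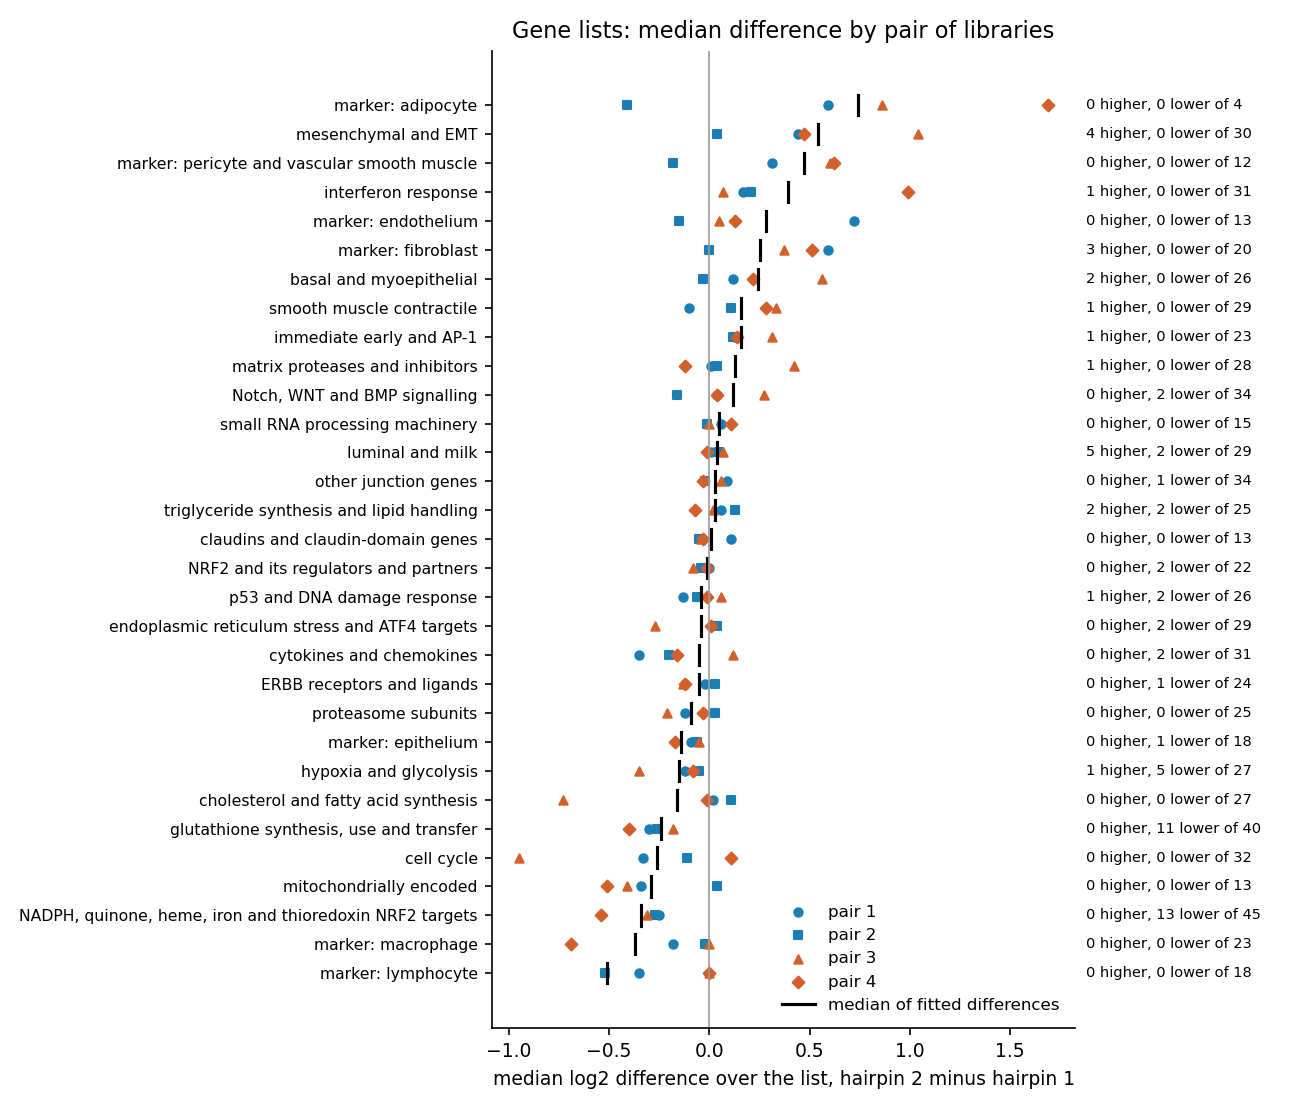
Median log2 difference of hairpin 2 minus hairpin 1 over each gene list (horizontal axis) in each of the 4 pairs and for the fitted differences (black), with the number of members past the threshold at the right. The glutathione and NADPH lists lie below 0 in all 4 pairs with 11 and 13 lower members, while the cell cycle list spans -0.95 to 0.11.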

How the data were processed

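The authors deposited whole-number read counts per gene for 12 libraries (4 each of control, hairpin 1 and hairpin 2), made after oligo-dT selection with the NEBNext Ultra kit, per the labels' protocols. The submitters' processing notes name mm10, FastQC 0.74, Trimmomatic 0.39 and DESeq2 1.34.0. Aligner, annotation and strand setting: not given in the sources used here. Of 25861 genes in the counts the authors deposited, 17025 passed edgeR's filterByExpr and 8836 did not; at least 99.97% of counts were kept and 1 row had no symbol.

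Counts were scaled by TMM (factors 0.941 to 1.064) and tested with edgeR 4.0.16 in R 4.3.3 (glmQLFit, glmQLFTest, Benjamini-Hochberg adjustment) on group plus replicate number, after a check on simulated data. DESeq2 1.42.0 was an alternative. Pairing came from the replicate numbers in the labels: same-numbered hairpin libraries correlated at 0.858 to 0.916 in their deviations from group means, others at -0.807 to 0.71, and 8 of 8 were closest to their own number. Replicates differed far beyond counting noise, so none was taken as a repeat, but they were not equally far apart. Chi-square per degree of freedom was 50.7 to 61.7 between replicates 1 and 2 of a group and 350.5 to 570.0 between other numbers. Hairpin replicates 1 and 2 correlated at 0.696 and 0.71 across hairpins, and at -0.807 to -0.633 with replicates 3 and 4. Whether replicates 1 and 2 share a source or batch was not tested. Named genes were Cldn7, Nfe2l2 and Acta2, the 12 largest differences each way with at least 2 CPM, up to 4 called members per list (or the 1 of smallest p), and called NRF2 regulators. The other called members of the NRF2 target lists and the genes called in both pairs of replicates were named after their values were seen. So were Muc1, Aldh1a3, Lcn2, Hk1, Pkm and uncalled NRF2 genes. The comparison and the lists were chosen with earlier results of these data known. One gene that met the rule is not reported here. Gene positions are from RefSeq, and exon overlaps and shared sequence are from GENCODE M21.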

Additional observations from a re-analysis of the deposited data

Results flagged for a closer look

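In 2 of 97 named genes, 1 of the 4 pair differences lay far from the other 3, by Dixon's test at its 95% critical value; chance alone marks about 1 in 20 groups of 4. Gclm fell least in replicate 3, by a log2 difference of -0.59, against -0.88 to -0.84. Fth1 fell most in replicate 4, at -1.0, against -0.62 to -0.58. The direction was the same in all 4 pairs of each gene.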

How the results depend on the processing

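The count of 585 genes became 1 with no replicate block, 1436 with DESeq2 and the block (580 of the 585 among them), 84 in replicates 1 and 2 and 42 in replicates 3 and 4. Without 1 library it ranged from 165 to 672, and without both hairpin libraries and the control of 1 replicate number from 66 to 282. With only the 8 hairpin libraries, RLE scaling, no filter or a filter of 1 CPM in 4 libraries it was 504, 581, 644 and 654. The 24 called members of the NRF2 target lists became 0 without the block, 37 with DESeq2, and 10 to 27 without 1 library or 1 replicate number. The 1 direction that reversed among the 97 named genes was Acta2, at -0.01 in replicates 1 and 2; its call was not past the threshold. Without the block, 83 of the 97 named genes lost their call. The cause was not tested, except that left-out libraries and replicate subsets test fewer samples. Means under 2 CPM were found in 22.7% of genes tested, in 3.4% of those that rose and in 1.9% of those that fell; the effect of depth on the calls was not tested.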
